A study of Mus musculus with 24 samples.

Results

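The respiratory chain is assembled from subunits encoded in 2 genomes, and the nuclear-encoded subunits were followed here through 12 groups of naive mouse embryonic stem cells (ESCs). Members were taken by name: protein-coding genes of the GENCODE vM21 annotation whose symbol marks a structural subunit of complex I, II, III, IV or V, or cytochrome c, without pseudogenes and without complex I assembly factors. The rule used no measured value and found 88 of the 55385 Ensembl genes in the tables, and all 88 had a row. They comprised 36 genes of complex I, 4 of complex II, 9 of complex III, 20 of complex IV, 18 of complex V and the cytochrome c gene Cycs. One of the complex V rows, Atp5o_2, is a second Ensembl gene with the symbol Atp5o, whose model begins inside Atp5o and runs on past several neighbouring genes.

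The study asked how quiescent naive ESCs with low mitochondrial membrane potential differ from cycling ones, and measured total RNA in 24 libraries, 2 per group. Naive ESCs kept in 2i/LIF medium were sorted by TMRM, a dye that enters mitochondria with the membrane potential, into high and low fractions, the low fraction being the spontaneously quiescent cells. Further low-potential cells were cultured with S-adenosylmethionine (SAM), the methyl donor of histone methylation, at 25 or 50 µM. Other naive ESCs received a pool of siRNAs against Mat2a (siMat2a) or control siRNA (siCtr), the fatty acid oxidation inhibitor etomoxir (FAOi) or water (H2O), or a small-molecule MYC inhibitor (MYCi) or its solvent DMSO. The last table held ESC lines derived from Eed fl/- (het) and Eed -/- (null) embryos on mouse embryonic fibroblast feeders, from a cross in which sires carried a Cre recombinase under the protamine promoter, so both genotypes carry at least 1 deleted Eed allele. The study's methods call the libraries of a group independent biological replicates, and the labels do not name the cultures or lines behind them. Values are FPKM, fragment numbers divided by transcript length and library size, in 6 tables that were normalized separately. Groups were therefore tested within a table. The single contrast across tables, of the FAOi and MYCi effects, takes each effect against its own controls, and levels set side by side across tables are descriptions without a test.

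Complex I takes electrons from NADH and complex II, which is also succinate dehydrogenase of the citric acid cycle, takes them from succinate. Ubiquinone carries them to complex III, cytochrome c carries them on to complex IV, and complexes I, III and IV pump protons whose return flow drives complex V, the ATP synthase. Several complex IV subunits have a form found in most tissues and a paralog restricted to heart and skeletal muscle, testis or lung, or raised in low oxygen. The transcription factors NRF1, GABPA (NRF2) and YY1 are known activators of nuclear respiratory chain genes, and MYC is known to bind E-boxes in growth and mitochondrial genes.

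Library depth, as estimated from the steps of the low values, ranged from 27.2 to 64.2 M fragments over Ensembl genes. The 13 mitochondrially encoded protein genes were listed at 0 in every library, so the tables carry no value for the subunits of the other genome. Mat2a stood at 48.5 and 45.1 FPKM in siCtr and 13.5 and 9.44 FPKM in siMat2a, and Eed at 11.4 and 11.6 FPKM in the het and 2.72 and 2.78 FPKM in the null libraries, as the labels give them. All 10 ESC markers were expressed in every group. Of 12 fibroblast markers, Col3a1 and Dcn were under 0.1 FPKM in both libraries of every group. Fn1 (fibronectin) was at 58.2 to 223 FPKM in every library and made up at least 84.4% of the summed list, and Col5a1 was at 0.597 to 3.31 FPKM. In bulk RNA, fewer cells of a type and less RNA per cell cannot be told apart.

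Within the control group of each table, levels differed widely among subunits of 1 complex. In complex V, the catalytic head subunits led: Atp5b (beta) had a mean of 291.9 FPKM in the high-potential cells, and Atp5a1 (alpha) led in the other controls at 165.9 to 223.1 FPKM. The lowest complex V gene by FPKM was Atp5l, subunit g of the membrane part, in all 6 controls, at 0.295 to 1.0 FPKM. FPKM divides by length, and the annotated exons of Atp5l cover 6443 bases. Those of Atp5b cover 4237 bases, and the median over all members is 1560. The part of annotated length, or of split multi-mapped reads, in these ranks was not tested. Cox8a, a small accessory subunit, was the highest of complex IV in all 6, at 66.6 to 160.3 FPKM, and Cox6a2 or Cox8c was the lowest. In complex III, Cyc1 (cytochrome c1) led in 5 controls at 45.8 to 71.7 FPKM and Uqcr10 led in the high-potential cells at 65.4 FPKM. Complex II spanned a narrower range, with its membrane anchor Sdhc lowest in all 6 at 13.1 to 21.4 FPKM. In complex I, Ndufc2 led in 5 controls at 32.9 to 73.0 FPKM, and Ndufa2 in the high-potential cells at 60.6 FPKM. Counting could split reads for many of these genes: 39 members overlap another annotated gene, 31 of them one on the opposite strand, and the reads were counted without strand.

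For 70 of the 88 members a promoter window of 300 bases (250 before the RefSeq start and 50 from it) was at hand, and each was searched on both strands for a short word of each known regulator. The NRF1 word GCATGCG was in the windows of 12 members (17.1%, against 4.01% of 27025 genes), the GABPA word CCGGAAG in 16 (22.9%, against 9.93%), the YY1 word AAGATGG in 11 (15.7%, against 7.28%) and the E-box CACGTG, which reads the same on both strands, in 6 (8.57%, against 8.09%). The E-box members were Atp5f1, Atp5g1, Atp5g3, Atp5l, Ndufa7 and Ndufv1, and 36 members had any of the words. A match is a run of letters and not a shown binding site. 5 windows are printed because these genes carry the results of the inhibitor comparisons: Uqcrh, Atp5g3, Ndufv1 and Cox7a1 were among the most changed members, and Cycs is the carrier between complexes. They lie on build GRCm38.p6 at chr4:116075021-116075320 (Uqcrh, minus strand), chr2:73911277-73911576 (Atp5g3, minus strand), chr19:4012706-4013005 (Ndufv1, minus strand), chr6:50566520-50566819 (Cycs, minus strand) and chr7:30183921-30184220 (Cox7a1, plus strand). Capitals mark a match, which is the GABPA word read on the other strand in Uqcrh, the E-box in Atp5g3 and Ndufv1, and 2 overlapping NRF1 words on opposite strands in Cycs, whereas the Cox7a1 window holds none.
Uqcrh: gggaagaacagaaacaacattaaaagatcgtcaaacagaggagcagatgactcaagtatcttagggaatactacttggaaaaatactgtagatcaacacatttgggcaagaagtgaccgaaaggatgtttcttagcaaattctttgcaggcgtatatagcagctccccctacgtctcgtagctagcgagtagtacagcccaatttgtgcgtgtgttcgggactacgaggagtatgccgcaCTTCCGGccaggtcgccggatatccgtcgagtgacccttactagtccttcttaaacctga
Atp5g3: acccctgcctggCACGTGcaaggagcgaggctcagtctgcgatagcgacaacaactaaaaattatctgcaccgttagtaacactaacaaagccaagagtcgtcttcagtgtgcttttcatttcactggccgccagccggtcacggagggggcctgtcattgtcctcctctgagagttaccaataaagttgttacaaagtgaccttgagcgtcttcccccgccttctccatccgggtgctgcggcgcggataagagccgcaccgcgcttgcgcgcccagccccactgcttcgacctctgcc
Ndufv1: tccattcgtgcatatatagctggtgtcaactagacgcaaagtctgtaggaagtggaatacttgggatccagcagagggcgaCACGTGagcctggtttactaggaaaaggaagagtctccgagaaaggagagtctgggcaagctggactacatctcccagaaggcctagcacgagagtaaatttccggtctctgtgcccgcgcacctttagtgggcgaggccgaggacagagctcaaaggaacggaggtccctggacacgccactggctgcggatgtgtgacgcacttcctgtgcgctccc
Cycs: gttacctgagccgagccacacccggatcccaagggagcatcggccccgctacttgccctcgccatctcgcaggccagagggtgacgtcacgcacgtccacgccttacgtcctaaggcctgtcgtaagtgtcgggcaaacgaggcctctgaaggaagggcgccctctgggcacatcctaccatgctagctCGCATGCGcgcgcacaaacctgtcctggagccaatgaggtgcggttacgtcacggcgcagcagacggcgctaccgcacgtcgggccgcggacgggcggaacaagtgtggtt
Cox7a1: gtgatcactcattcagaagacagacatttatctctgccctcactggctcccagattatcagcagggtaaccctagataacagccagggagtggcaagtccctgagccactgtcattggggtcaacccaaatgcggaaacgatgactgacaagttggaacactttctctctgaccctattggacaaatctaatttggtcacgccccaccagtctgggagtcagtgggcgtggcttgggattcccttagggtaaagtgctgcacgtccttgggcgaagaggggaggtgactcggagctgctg

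Under inhibition of fatty acid oxidation, 80 of 88 members were lower in FAOi than in H2O (background 51.3% of 25421 genes tested) and 1 was higher (background 13.9%), by limma on log2(FPKM + 0.1) at an adjusted p under 0.05. The summed FPKM of all members was 2158 and 3064 in H2O and 897 and 814 in FAOi, 32.8% of control. The 2 groups did not overlap, and the loss ran through every complex: summed levels stood at 34.7% of control for complex I, 31.1% for II, 34.0% for III, 35.7% for IV and 29.0% for V. The summed FPKM of all Ensembl genes also fell, from 324147 and 456934 in H2O to 162084 and 154656 in FAOi. The median log2 fold change of the members was -1.52, against -0.66 over all genes tested. Because the deposited values had most genes lower in FAOi, each table was also rescaled by median-of-ratios size factors, which set the median of all genes at 0.05 here. On this scale 71 members were lower (background 31.2%) and 3 higher (background 30.9%), with a median of -0.75, and all 71 were also lower on the deposited scale. Of the 48 members with a mean of at least 10 FPKM in the table, 47 were lower on the rescaled values, against 69.8% of all 5007 such genes. The count on the deposited scale rested partly on single libraries: without FAOi replicate 2 it was 13 and without FAOi replicate 1 it was 22, whereas the rescaled count stayed between 59 and 73 with any 1 library left out.

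**Figure D1:**
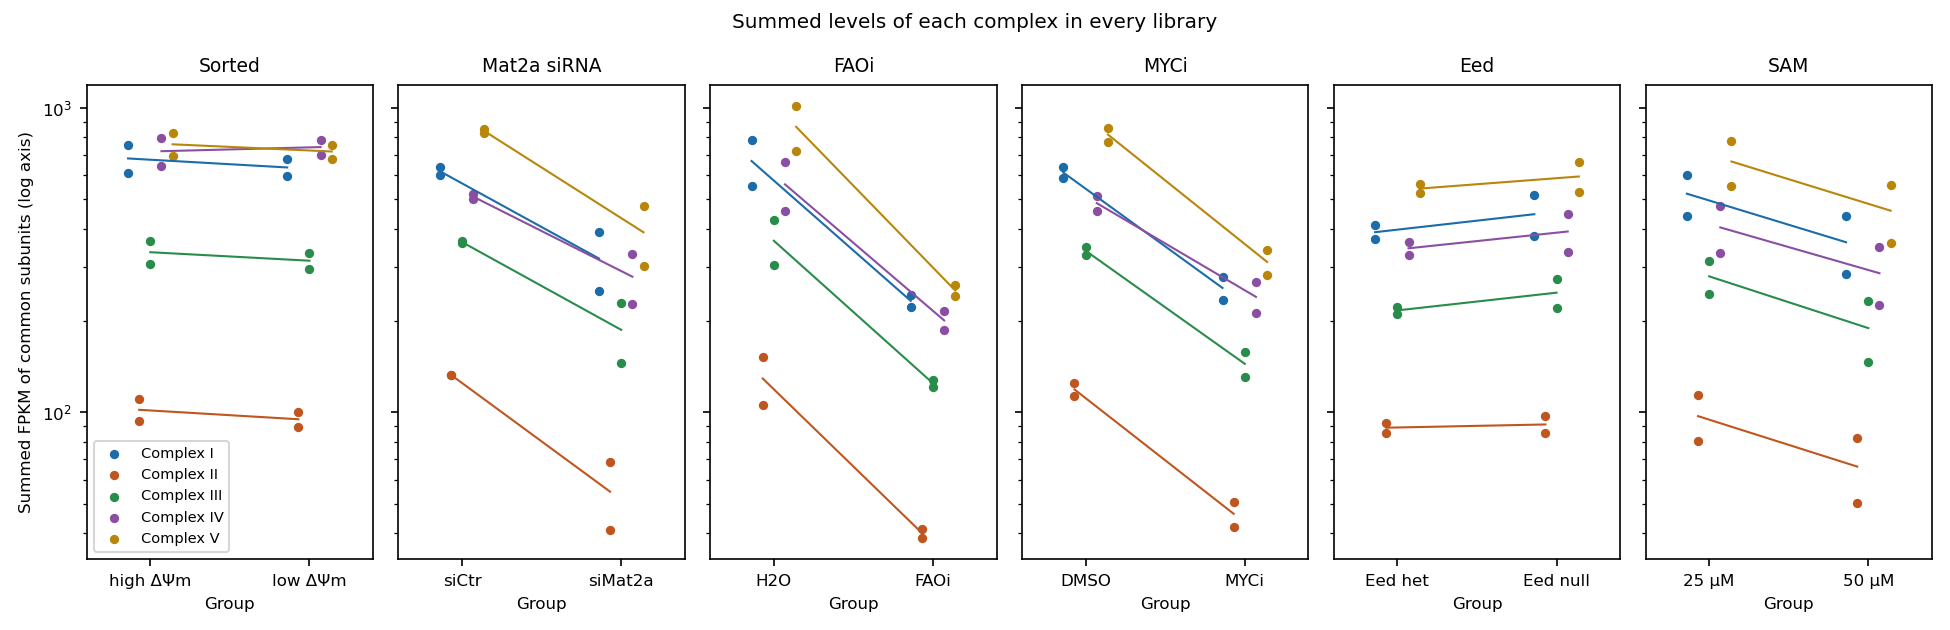
Summed FPKM (log axis) of all members of each complex in each library, 1 panel per comparison, with lines joining the group means. The axis label names common subunits, but the sums include the restricted isoforms. The FAOi, MYCi and siMat2a libraries lie below their controls for each of complexes I to V, and the sorted and Eed libraries overlap theirs. The 50 µM SAM libraries lie below the 25 µM libraries for complexes I and III and overlap them for II, IV and V.

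Among the 36 complex I genes, 33 were lower in FAOi on the deposited scale and 29 after rescaling (median -0.69). Ndufv1, which holds the NADH-binding flavin site and whose E-box window is printed above, was at 28.9 and 39.6 FPKM in H2O and 9.14 and 8.79 FPKM in FAOi, a log2 change of -1.90, or -1.11 after rescaling. Ndufs1, an iron-sulfur core subunit, fell from 13.6 and 18.6 FPKM to 5.27 and 5.20 FPKM. For both genes each FAOi library was below each H2O library. Ndufb2, an accessory subunit of the membrane arm (0.624 and 0.781 FPKM in H2O, 0.654 and 0.571 FPKM in FAOi), and Ndufs5 (0.661 and 0.876 FPKM in H2O, 0.594 and 0.718 FPKM in FAOi) overlapped between groups as deposited and were called higher after rescaling, by 0.52 and 0.50 on the log2 scale.

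All 4 complex II genes and all 9 complex III genes were lower in FAOi on both scales. Sdhc, which anchors the enzyme in the membrane, was at 17.9 and 24.8 FPKM in H2O and 5.48 and 4.52 FPKM in FAOi, with a rescaled log2 change of -1.27 (SE 0.10, limma adjusted p = 0.000901). The rescaled changes of the other 3 were smaller in size, -0.69 for the flavoprotein Sdha and -0.83 for both the iron-sulfur subunit Sdhb and the anchor Sdhd. Uqcrh, the hinge protein of complex III, had the largest drop among the common subunits, from 22.5 and 29.7 FPKM to 5.28 and 4.38 FPKM (log2 -2.40, SE 0.29, and -1.62, SE 0.09, after rescaling, limma adjusted p = 0.000502). The pseudogene Gm12854 overlaps 297 bases of Uqcrh on the opposite strand and was itself at 52.5 and 69.8 FPKM in H2O and 29.8 and 27.2 FPKM in FAOi. Its part in the Uqcrh values was not tested. The Rieske iron-sulfur protein gene Uqcrfs1 fell less, by 0.62 after rescaling, and Cyc1 by 0.87.

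Cycs, the mobile carrier, was at 17.9 and 26.9 FPKM in H2O and 7.63 and 7.55 FPKM in FAOi, a rescaled log2 change of -0.73 (limma adjusted p = 0.00241). In complex V, 16 of 18 genes were lower as deposited and 14 after rescaling (median -0.81). The 3 genes Atp5g1, Atp5g2 and Atp5g3 encode the same mature c-ring peptide, and their levels did not move alike. Atp5g3, the most abundant of them, went from 38.5 and 55.0 FPKM to 10.5 and 9.34 FPKM (rescaled log2 -1.41, SE 0.08, limma adjusted p = 0.000514), and Atp5g1 from 4.83 and 6.52 FPKM to 1.54 and 1.33 FPKM (-1.14). Atp5g2 was at 4.36 and 4.93 FPKM in H2O and 2.65 and 2.39 FPKM in FAOi, and its rescaled change of -0.08 did not pass the test. Atp5a1 and Atp5b, the alpha and beta subunits, changed by -1.16 and -0.94 after rescaling.

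In complex IV, all 12 genes outside the restricted isoforms were lower as deposited and 10 after rescaling. Cox4i1, the ubiquitous subunit 4 form, was at 28.1 and 39.6 FPKM in H2O and 11.6 and 10.3 FPKM in FAOi, a rescaled change of -0.81. Its exons are shared in part with a readthrough gene, so its reads may be split. Cox8a, the most abundant complex IV gene, fell by 0.52 after rescaling, and Cox7a2l, which joins complexes III and IV in supercomplexes, had a rescaled change of 0.05 that did not pass the test.

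Of the muscle isoforms of complex IV, Cox6a2 and Cox7a1 stood out at opposite ends of the list. Cox8b, the muscle form of subunit 8, held about 9.01 and 0 fragments in H2O and 8.99 and 4.01 in FAOi. It was not called on both scales. Cox6a2, the heart and skeletal muscle form of subunit 6a, was at 0.152 and 0.0418 FPKM in H2O, about 5.01 and 1.0 fragments, and at 8.89 and 8.04 FPKM in FAOi, about 402 and 408 fragments. Both FAOi libraries lay far above all H2O values, with a rescaled log2 change of 6.02 (SE 0.30, limma adjusted p = 0.000421), whose size depends on the pseudocount because the controls were near 0: with a pseudocount of 1 the deposited log2 change was 3.11 in place of 5.50. Its ubiquitous paralog Cox6a1 remained the more abundant of the pair in FAOi, at 26.5 and 23.4 FPKM. Cox6a2 (chr7:128205435-128206387) lies within the gene Itgad on the opposite strand, which was at 0.00151 and 0.00630 FPKM in H2O and 0.0980 and 0.170 FPKM in FAOi. Cox7a1, the heart and skeletal muscle form of subunit 7a, moved the other way, from 8.58 and 12.6 FPKM to 1.60 and 1.14 FPKM (rescaled log2 -2.09, SE 0.17, limma adjusted p = 0.000946). Ndufa4l2, a complex IV subunit paralog raised in low oxygen in other cells, fell from 1.70 and 2.34 FPKM to 0.473 and 0.319 FPKM. Cox8c, a testis form, was at 0.226 and 0.372 FPKM in H2O, only about 5.01 and 6.01 fragments, and listed at 0 in both FAOi libraries.

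**Figure D2:**
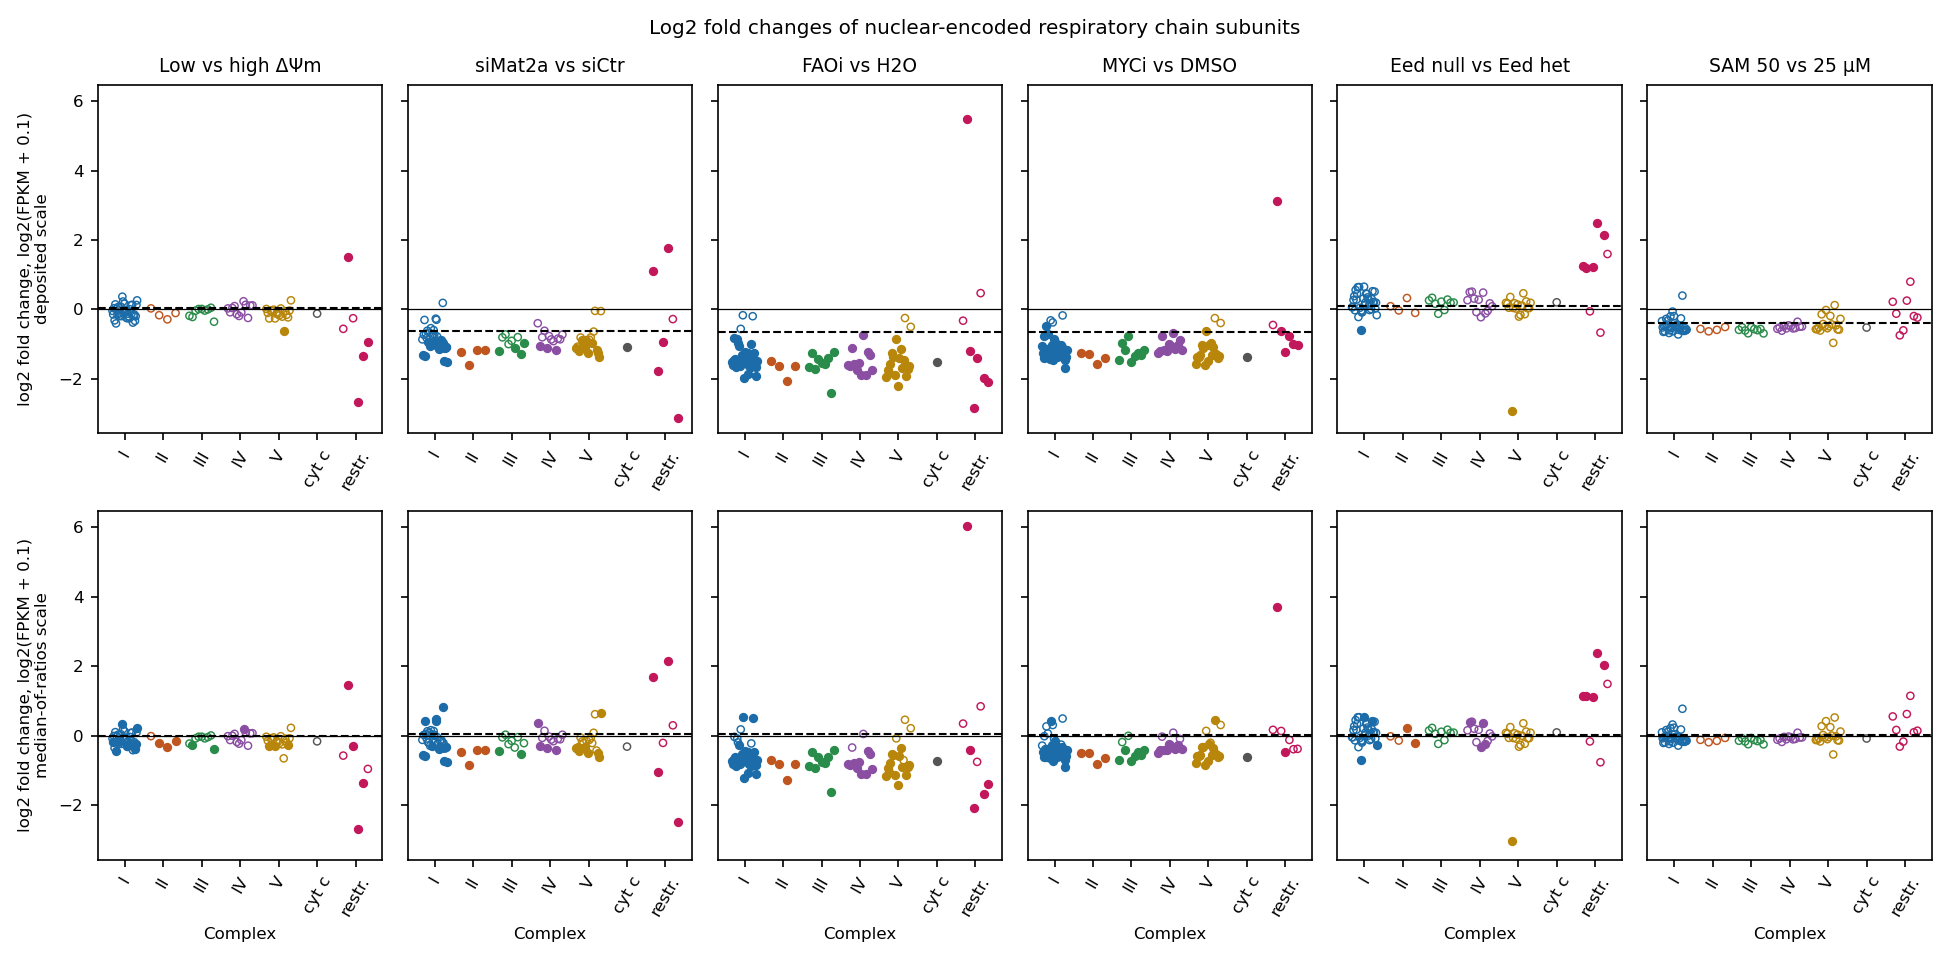
Log2 fold change of each member in the 6 comparisons, on the deposited and the rescaled values, grouped by complex; filled points have an adjusted p under 0.05 and the dashed line is the median of all genes tested. In FAOi most points lie below that line on both scales, with Cox6a2 far above it.

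MYC inhibition gave the same number of calls: 80 of 87 members tested were lower in MYCi than in DMSO (background 57.8% of 24335 genes) and 1 was higher (background 7.89%). The summed FPKM of the members was 2506 and 2282 in DMSO and 906 and 1105 in MYCi, 42.0% of control, with no overlap. The median log2 change was -1.19, against -0.65 over all genes. After rescaling, 62 members were lower (background 28.4%) and 3 higher (background 25.4%), with a median of -0.42 against 0.03. Of the 51 members at 10 FPKM or more, 46 were lower after rescaling, against 69.4% of all 4840 such genes. By complex, rescaled medians were -0.45 for I, -0.57 for II, -0.48 for III, -0.33 for IV and -0.54 for V. The share of the summed FPKM of all Ensembl genes held by the members was 0.666% and 0.665% in DMSO and 0.591% and 0.600% in MYCi, beside 0.666% and 0.670% in H2O and 0.553% and 0.527% in FAOi.

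Ndufv1 had the largest drop in MYCi, from 34.8 and 32.1 FPKM to 9.94 and 10.8 FPKM (log2 -1.68, SE 0.15, limma adjusted p = 3.6e-05, and -0.92 after rescaling). Next came the c-ring gene Atp5g1, whose promoter window also holds an E-box, from 6.26 and 5.92 FPKM to 1.78 and 2.15 FPKM (log2 -1.59, SE 0.16, limma adjusted p = 4.62e-05). Sdhc fell from 19.2 and 17.5 FPKM to 5.58 and 6.64 FPKM (log2 -1.58). In each of these genes both MYCi libraries lay below both DMSO libraries. Atp5a1 went from 226 and 192 FPKM to 65.2 and 76.0 FPKM, and Uqcrc1, a core protein of complex III, from 46.1 and 42.6 FPKM to 14.4 and 16.9 FPKM. Cycs was at 21.7 and 20.6 FPKM in DMSO and 7.02 and 9.29 FPKM in MYCi, a rescaled change of -0.61. Cox8a (rescaled -0.10), Atp5g2 (0.13) and the testis form Cox6b2 (0.13) did not pass the rescaled test. Cox6a2 was again the member that rose, from 0.211 and 0.0959 FPKM (about 5.32 and 3.0 fragments) to 1.70 and 2.46 FPKM (about 88.7 and 119 fragments), a rescaled log2 change of 3.70 (SE 0.24, limma adjusted p = 0.00126). The other 2 members called higher after rescaling were Atp5l (0.44), whose window also holds an E-box, and the mitochondrial acyl carrier protein Ndufab1 (0.41). Neither passed the test on the deposited values.

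Over the 6 members with an E-box in the window, the median rescaled change was -0.90 in FAOi and -0.62 in MYCi, beside -0.70 and -0.41 over the 64 with a window and no E-box. The quartiles overlapped. In FAOi they were -1.13 and -0.60 with an E-box and -0.83 and -0.44 without. In MYCi they were -0.81 and -0.38 with an E-box and -0.55 and -0.20 without. For the NRF1 word the medians with and without it were -0.69 and -0.71 in FAOi and -0.41 and -0.42 in MYCi. For the GABPA word they were -0.67 and -0.71 in FAOi and -0.41 and -0.42 in MYCi. For the YY1 word they were -0.75 and -0.70 in FAOi and -0.43 and -0.41 in MYCi. Members with an E-box also had the lower median in siMat2a (-0.27 against -0.14), in low-potential cells (-0.21 against -0.12) and in Eed null cells (-0.08 against 0.07). These medians are given as a description, and 18 members, Sdhc and Atp5a1 among them, had no window to search. The part of any word in the changes was not tested.

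ESC markers fell in the same libraries. Their summed FPKM was 1173 to 1665 in H2O and 420 to 452 in FAOi, and 1203 to 1349 in DMSO and 500.3 to 589 in MYCi. All 10 were lower in FAOi on both scales, and in MYCi 10 were lower as deposited and 8 after rescaling. Of all genes with a mean of at least 10 FPKM, 87.2% were lower in FAOi as deposited and 69.8% after rescaling. In MYCi these shares were 95.2% and 69.4%. Fibroblast markers summed to 179 to 228 FPKM in H2O and 113 to 122 FPKM in FAOi, and to 165 to 172 FPKM in DMSO and 121 to 142 FPKM in MYCi, sums that are nearly all Fn1. After rescaling 2 of 7 fibroblast markers tested were higher and 3 lower in FAOi, and 1 of 6 was higher and 2 lower in MYCi. Of all genes tested, 30.9% were higher and 31.2% lower in FAOi after rescaling, and 25.4% and 28.4% in MYCi. The part of either marker list in the member changes was not tested.

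The difference between both inhibitor effects was tested directly, each against its own control. On the deposited scale 1 member was higher in FAOi relative to MYCi (background 1.13% of 23717 genes) and 1 lower (background 0.519%). After rescaling 1 was higher (background 9.34%) and 17 were lower (background 9.35%), with a median difference of -0.23 against -0.01 over all genes. Among members at 10 FPKM or more, 10 of 49 were lower after rescaling, beside 20.5% of all 4928 such genes. The median difference there was -0.23 against -0.10. Cox6a2 was the higher member, with a difference of 2.38 (SE 0.44, limma adjusted p = 0.0266), and Cox7a1 the lower, with -1.63 (SE 0.31, limma adjusted p = 0.0298). Cox7a1 in MYCi had gone from 6.19 and 5.83 FPKM to 2.44 and 2.61 FPKM, a smaller drop than in FAOi. The deposited Cox7a1 difference lost its call without DMSO replicate 2, FAOi replicate 2 or MYCi replicate 2, and the rescaled Cox6a2 difference without FAOi replicate 1, FAOi replicate 2 or MYCi replicate 1, with adjusted p from 0.0504 to 0.0902. Among the 17 after rescaling, the largest after Cox7a1 were Uqcrh (-1.03, SE 0.12, limma adjusted p = 0.00376), the small complex I subunit Ndufa3 (-0.98, SE 0.24, limma adjusted p = 0.0328) and Atp5g3 (-0.65). Without 1 library the rescaled count ranged from 6, without DMSO replicate 2 or MYCi replicate 2, to 21 without H2O replicate 1.

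**Figure D3:**
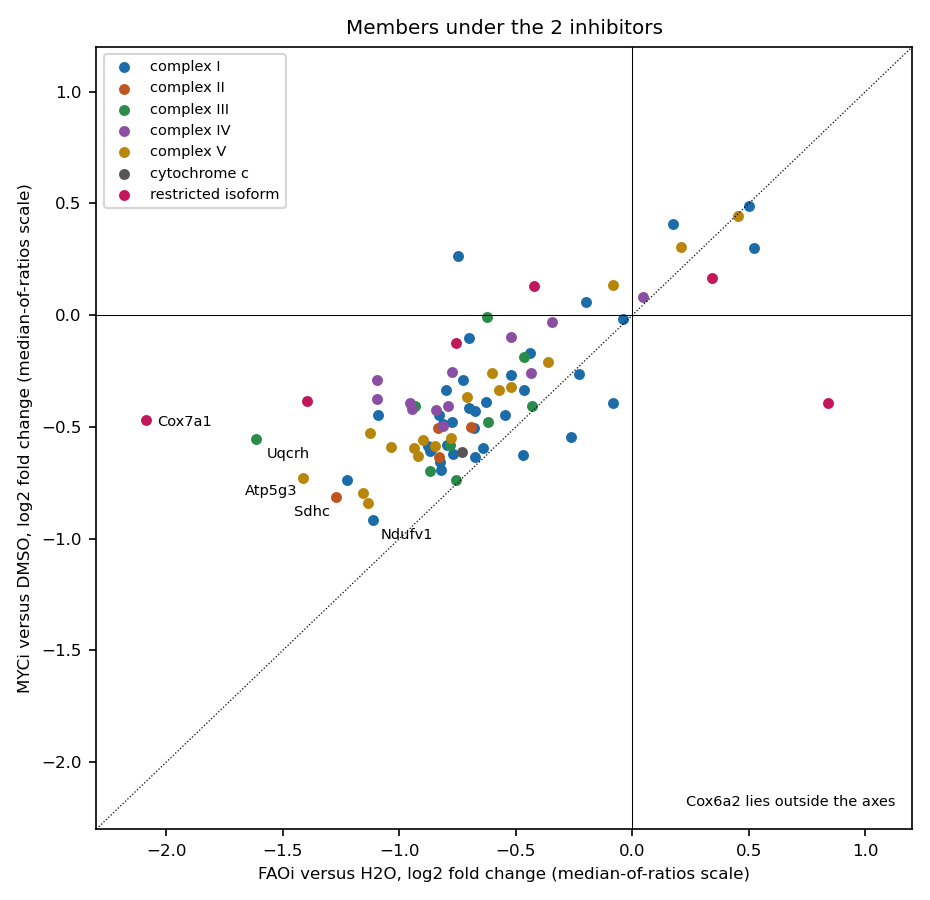
Rescaled log2 change of each member in FAOi (x axis) and MYCi (y axis), with a dotted line of equal change. Most members lie in the lower left, Cox7a1 and Uqcrh are set apart toward lower FAOi values, and Cox6a2 lies outside the axes at 6.02 and 3.70.

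Knockdown of Mat2a, an enzyme that makes SAM, gave 45 of 86 members lower (background 36.8% of 24938 genes) and 2 higher (background 13.1%). Summed member FPKM was 2530 and 2443 in siCtr and 1510 and 974 in siMat2a, 49.9% of control, without overlap, and the 2 siMat2a libraries differed more than the controls. The median log2 change was -0.93 against -0.63 over all genes. After rescaling, 27 were lower (background 19.8%) and 8 higher (background 23.0%), with a median of -0.19 against 0.04. Among members at 10 FPKM or more the rescaled median was -0.32, equal to that of all 5068 such genes, and 24 of 52 were lower beside 46.6% of those genes. The share of summed FPKM was 0.654% and 0.648% in siCtr and 0.650% and 0.664% in siMat2a. The deposited count was 1 without siCtr replicate 1 or without siCtr replicate 2, 62 without siMat2a replicate 2 and 78 without siMat2a replicate 1. The rescaled count was 5 without either siCtr library and 34 without siMat2a replicate 1.

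Complex II was the complex with every member lower in siMat2a on both scales. Sdhb was at 42.0 and 44.8 FPKM in siCtr and 18.2 and 11.0 FPKM in siMat2a (log2 -1.61, SE 0.44, and -0.86, SE 0.10, after rescaling, limma adjusted p = 0.00472). Sdha, Sdhc and Sdhd changed by -0.48, -0.42 and -0.42 after rescaling. The accessory complex I subunit Ndufv3 went from 22.9 and 22.0 FPKM to 9.33 and 6.45 FPKM, and the core subunit Ndufs7 from 30.9 and 30.5 FPKM to 13.4 and 8.82 FPKM. Each siMat2a library was below each siCtr library for these genes. In complex IV, by contrast, 3 of 12 were lower on each scale, and Cox4i1 (29.4 and 24.9 FPKM in siCtr, 24.6 and 17.0 FPKM in siMat2a) was called higher by 0.35 after rescaling. Cyc1 went from 71.9 and 71.5 FPKM to 38.3 and 25.4 FPKM, with a rescaled change of -0.45 (limma adjusted p = 0.0107).

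The largest siMat2a changes were again in restricted isoforms. Ndufa4l2 fell from 2.73 and 2.23 FPKM to 0.229 and 0.166 FPKM (rescaled log2 -2.50, SE 0.17, limma adjusted p = 0.00164). Cox6b2, the testis form of subunit 6b, fell from 15.7 and 15.9 FPKM to 5.25 and 3.89 FPKM (rescaled log2 -1.04, SE 0.08, limma adjusted p = 0.0021). In both, siMat2a libraries lay well below siCtr. Ndufa4l2 ends within Shmt2, a gene it overlaps by 32 bases. Cox4i2, the lung form of subunit 4, rose from 0.215 and 0.250 FPKM to 0.587 and 0.642 FPKM (rescaled log2 1.69). The testis form Cox7b2, at 0.0832 and 0 FPKM in siCtr and 0.651 and 0.189 FPKM in siMat2a, was called higher on a few fragments. Cox6a2 stayed near 0 in this table, at 0 and 0.0340 FPKM in siCtr and 0.0231 and 0.0306 FPKM in siMat2a. The summed ESC markers were 1307 to 1386 FPKM in siCtr and 433 to 709 FPKM in siMat2a, and the fibroblast markers 210.3 to 219 FPKM and 94.5 to 143 FPKM. That sum follows Fn1 (217 and 207 FPKM, then 138 and 91.2 FPKM), whereas by count 5 of 8 fibroblast markers tested were higher in siMat2a and 1 lower, and 6 and 1 after rescaling (median log2 change 1.26). Of all genes tested, 13.1% were higher and 36.8% lower as deposited, and 23.0% and 19.8% after rescaling. The part of either marker list in the member changes was not tested.

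Between sorted cells few members differed as deposited: 1 of 86 was higher in low-potential cells (background 14.0% of 21086 genes) and 4 were lower (background 6.45%). Summed member FPKM overlapped, at 2349 and 2851 in high-potential and 2655 and 2365 in low-potential cells, and the median log2 change was -0.09 against 0.04 over all genes. Rescaling made the spread between libraries smaller, and then 20 members were lower (background 17.0%) and 4 higher (background 19.4%), with a median of -0.14 against -0.01. The study normalized this comparison to ERCC spike-in RNAs. Scaled to these, 3 members were lower (background 5.15%) and 1 higher (background 12.2%), with a median of -0.05 against 0.08. The count of 20 was thus not seen on the spike-in scale. The rescaled count of lower members was 0 without low-potential replicate 2, 1 without low-potential replicate 1, 11 without high-potential replicate 2 and 24 without high-potential replicate 1. Among members at 10 FPKM or more, 15 of 57 were lower after rescaling, beside 29.4% of all 3956 such genes.

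Cox6b2 was the member that rose, from 5.02 and 5.49 FPKM in high-potential to 15.6 and 14.5 FPKM in low-potential cells (log2 1.50, SE 0.14, limma adjusted p = 1.47e-05, and 1.45 after rescaling). The groups were far apart, and its call held in 20 of 20 alternatives. Cox7b2 went the other way, from 1.64 and 1.28 FPKM to 0.224 and 0.0875 FPKM (log2 -2.65, SE 0.24, limma adjusted p = 1.15e-05), and Cox8b, the muscle form of subunit 8, from 0.559 and 0.466 FPKM to 0.0962 and 0.198 FPKM (log2 -1.34). Both are thus restricted isoforms at low levels. Atp5k, subunit e of the ATP synthase membrane part, was at 5.44 and 8.55 FPKM and then 4.44 and 4.43 FPKM, and its call (log2 -0.61, limma adjusted p = 0.0408) was lost after rescaling (limma adjusted p = 0.0507) and, on the deposited values, without high-potential replicate 2, low-potential replicate 1 or low-potential replicate 2. Ndufa4l2, at 0.634 and 0.265 FPKM and then 0.137 and 0.213 FPKM, was likewise called as deposited only.

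The common subunits called after rescaling moved little. Ndufa2, the highest complex I gene in these cells, was at 53.7 and 67.4 FPKM in high-potential and 49.7 and 41.7 FPKM in low-potential cells (rescaled log2 -0.45, SE 0.08, limma adjusted p = 0.0173). Uqcrq, a small complex III subunit, was at 20.2 and 24.8 FPKM and then 18.3 and 16.7 FPKM (rescaled log2 -0.40, SE 0.06, limma adjusted p = 0.0112). Neither pair of groups overlapped. In the other direction, Ndufb11, a membrane-arm subunit encoded on the X chromosome, was at 13.8 and 17.5 FPKM and then 21.1 and 19.1 FPKM (rescaled log2 0.32), and Ndufv3 at 9.78 and 11.1 FPKM and then 12.9 and 12.1 FPKM (rescaled log2 0.21). Summed ESC markers were 1018 to 1136 FPKM in high-potential and 1238 to 1381 FPKM in low-potential cells, and fibroblast markers 104 to 112 FPKM and 141 to 148 FPKM. The latter sum follows Fn1 (at most 108 FPKM, then 143 and 136 FPKM), and by count 2 of 6 fibroblast markers tested were higher and 2 lower, or 3 and 2 after rescaling. Of all genes tested, 14.0% were higher and 6.45% lower as deposited, and 19.4% and 17.0% after rescaling. The part of either marker list in these values was not tested.

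**Figure D4:**
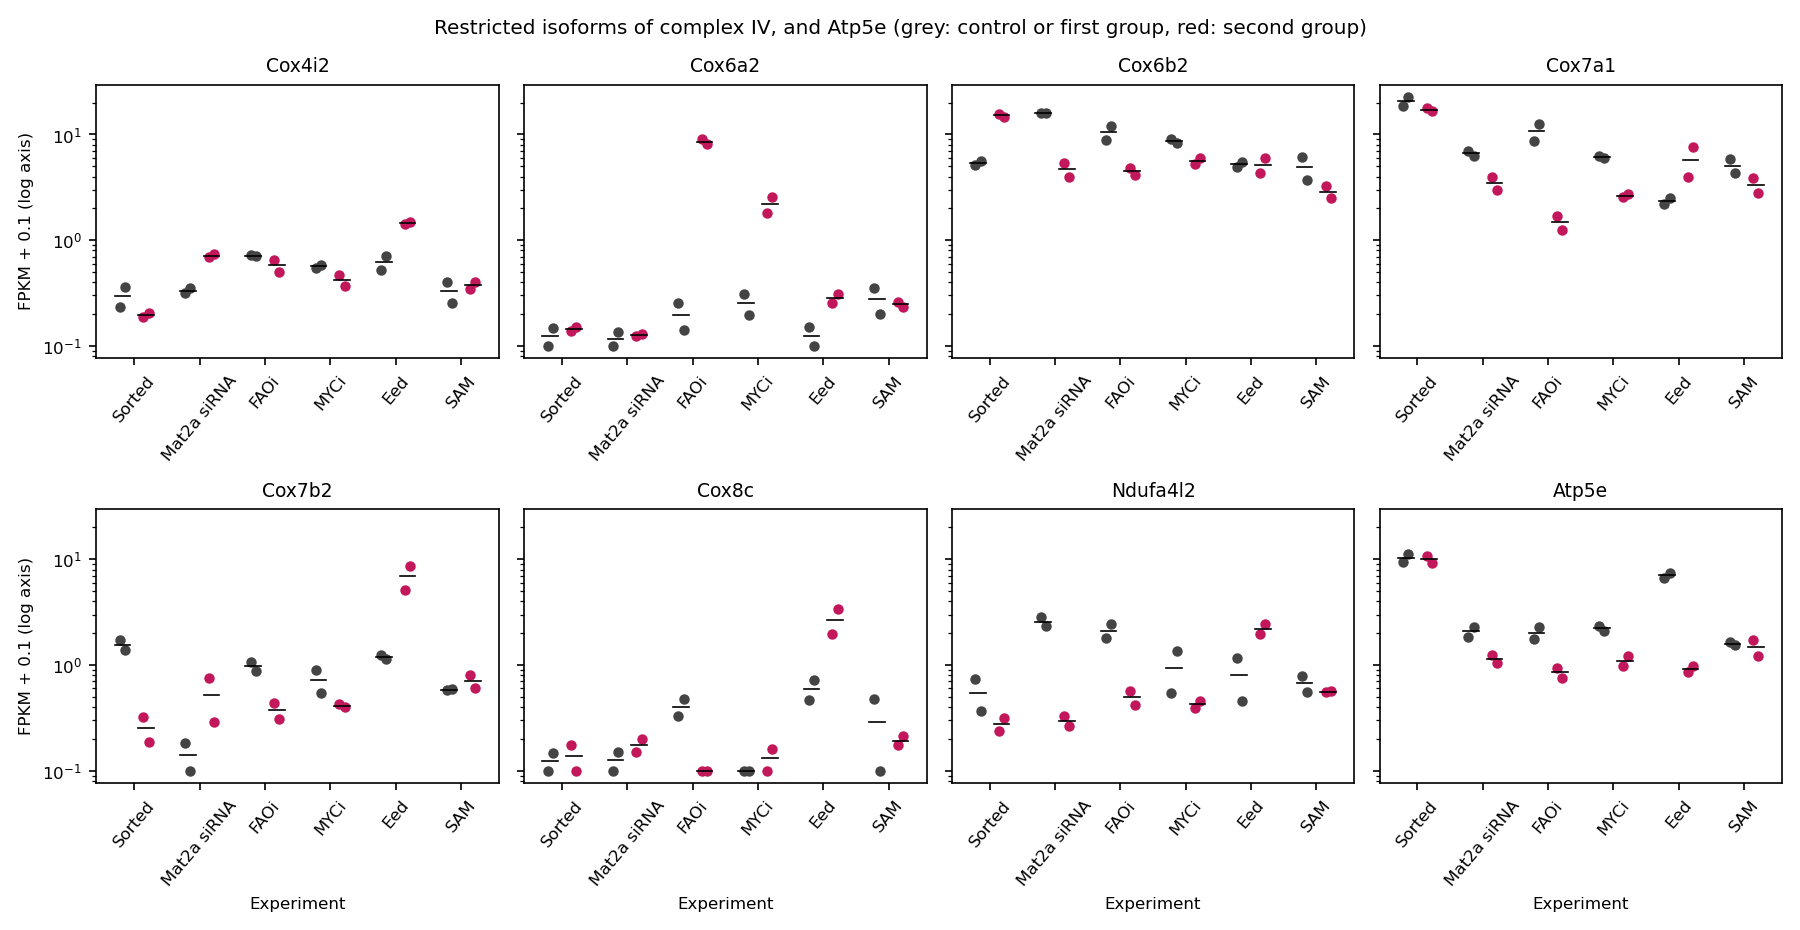
FPKM plus 0.1 (log axis) of restricted isoforms and Atp5e in each library, with the first group of a comparison in grey, the second in red and bars for group means. Cox6a2 is high in FAOi and MYCi, Cox6b2 is higher in low-potential cells and lower in siMat2a, and Atp5e is at 6.60 and 7.30 FPKM in Eed het and 0.754 and 0.887 FPKM in Eed null libraries.

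Raising SAM from 25 to 50 µM in low-potential cells gave no member call in either direction, on either scale, in the fit without a replicate block. As deposited, 0 of 88 members were higher (background 0.389% of 23911 genes) and 0 lower (background 0.493%), and rescaled the counts were also 0 (background 0% each way). At an unadjusted p under 0.05 there was 1 member each way as deposited and 3 each way after rescaling. The summed member FPKM of the 25 µM libraries, 2310 and 1666, narrowly overlapped that of the 50 µM libraries, 1677 and 1075. The sums did not overlap for complex I (603 and 441, then 439 and 284 FPKM) or complex III (315 and 244, then 231 and 146 FPKM). Those of the restricted isoforms did not overlap either, whereas those of complexes II, IV and V and of Cycs did. The median change was -0.52 against -0.40 over all genes. After rescaling the median was -0.08. Sdhb, for example, was at 34.0 and 25.7 FPKM at 25 µM and 24.3 and 14.9 FPKM at 50 µM. Replicate 2 was below replicate 1 in both groups.

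In Eed null libraries the common subunits were near their het level. Het and null lines were derived from separate embryos, and the labels do not name the lines. Genotype and line therefore cannot be told apart in this comparison. The summed FPKM of all members was 1535 and 1666 in het and 1568 and 2016 in null libraries, which overlap. Of 88 members, 5 were higher in null (background 24.2% of 27015 genes) and 2 lower (background 12.1%), with a median of 0.19 against 0.11 over all genes. After rescaling 10 were higher (background 25.3%) and 6 lower (background 22.5%), with a median of 0.08 against 0.01. The 5 higher members were all restricted isoforms of complex IV, of 8 in the list, and no common subunit was called higher as deposited. The deposited count was 1 without null replicate 2 and 20 without null replicate 1, and the rescaled count was 30 without null replicate 1, 5 without het replicate 1 and 4 without het replicate 2. Among members at 10 FPKM or more, 3 were lower and 3 higher of 48 after rescaling, beside 45.8% lower and 12.7% higher of all 4931 such genes.

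EED is a core subunit of Polycomb repressive complex 2, which places H3K27me3. Cox7b2 was at 1.13 and 1.05 FPKM in het and 4.99 and 8.58 FPKM in null libraries (log2 2.48, SE 0.27, limma adjusted p = 0.00409). Cox8c went from 0.367 and 0.624 FPKM to 1.85 and 3.27 FPKM (log2 2.14, SE 0.35, limma adjusted p = 0.0115). Both testis forms were higher in each null library than in either het library. Cox4i2 was at 0.427 and 0.608 FPKM and then 1.31 and 1.39 FPKM (log2 1.24, SE 0.20, limma adjusted p = 0.011), and Cox7a1 at 2.08 and 2.40 FPKM and then 3.87 and 7.45 FPKM (log2 1.23, SE 0.32, limma adjusted p = 0.0402). The Cox7a1 call was lost in 7 of 19 alternatives, among them without null replicate 2 (log2 0.77, limma adjusted p = 0.0604) and without het replicate 1 (limma adjusted p = 0.0712). Cox6a2 was called higher at the edge of detection, at 0.0495 and 0 FPKM in het and 0.153 and 0.209 FPKM in null libraries. Ndufa4l2, at 1.06 and 0.353 FPKM and then 1.86 and 2.36 FPKM, did not pass (limma adjusted p = 0.0544). The summed level of the 8 restricted isoforms was 10.3 and 10.8 FPKM in het and 18.3 and 29.5 FPKM in null libraries, 226% of control, which remained a small part of the complex IV sum.

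Atp5e, the epsilon subunit of the ATP synthase central stalk, was the exception among common subunits. It stood at 6.60 and 7.30 FPKM in het and 0.754 and 0.887 FPKM in null libraries, about 690 and 764 against 86.1 and 140 fragments. The log2 change was -2.94 (SE 0.14, limma adjusted p = 0.00102), or -3.05 (SE 0.08, limma adjusted p = 0.000448) after rescaling, and it kept its direction and its call in 19 of 19 alternatives. Controls of other tables, set beside these without a test, differed widely. They held about 137 and 167 fragments in siCtr, 142 and 136 in H2O, 145 and 163 in DMSO, and 1065 and 932 in high-potential cells. The other subunits of the central stalk, Atp5c1 and Atp5d, were not called on either scale. Ndufab1 was at 1.11 and 1.24 FPKM in het and 0.697 and 0.791 FPKM in null libraries (log2 -0.59, SE 0.16, limma adjusted p = 0.0431). This call was lost in 7 of 19 alternatives, among them on the deposited values without any 1 of the 4 libraries (limma adjusted p = 0.0743 to 0.278). Cox7a2, the ubiquitous partner of Cox7a1, was at 52.9 and 57.3 FPKM and then 45.8 and 48.5 FPKM, and was called lower after rescaling only (log2 -0.34, SE 0.08, limma adjusted p = 0.0222). Summed ESC markers were 733 to 772 FPKM in het and 739 to 851 FPKM in null libraries. Fibroblast markers summed to 67.4 to 69.9 FPKM and 78.3 to 83.9 FPKM, and by count 6 of 9 tested were higher in null and 2 lower on both scales (median log2 change 0.90 as deposited). Of all genes tested, 24.2% were higher and 12.1% lower as deposited, and 25.3% and 22.5% after rescaling. Col1a1 was at 5.69 and 6.80 FPKM in het and 0.650 and 0.681 FPKM in null libraries, whereas Pdgfrb was at 0.680 and 0.594 FPKM and then 3.89 and 4.36 FPKM, and Thy1 at 0.204 and 0.257 FPKM and then 1.44 and 1.73 FPKM. The part of either marker list in these values was not tested.

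Across the 6 comparisons, 60 members were lower on both scales in FAOi and in MYCi, and 24 in siMat2a, FAOi and MYCi. These are 69.0% and 27.9% of the members tested in each, beside 24.3% of 23717 and 12.7% of 22749 genes, and among genes with a mean of at least 10 FPKM in each table they were 43 of 48 members (89.6%) beside 62.8%, and 22 of 48 (45.8%) beside 36.6%. In at least 3 comparisons 25 members (28.4%, beside 15.3% of 24903 genes) were lower on both scales, among them all 4 of complex II; Ndufa10, Ndufa13, Ndufb10, Ndufc1, Ndufc2, Ndufs7, Ndufv1 and Ndufv3 of complex I; Cyc1 and Uqcrh of III; Cox5a, Cox6b1 and Cox7b of IV; and Atp5a1, Atp5c1, Atp5e, Atp5g1, Atp5g3 and both Atp5o rows of V. Of these, Ndufa10 went from 43.6 and 42.1 FPKM in siCtr to 21.6 and 13.6 FPKM in siMat2a, and from 40.4 and 56.0 FPKM in H2O to 15.9 and 15.3 FPKM in FAOi. The only member higher on both scales in at least 3 was Cox6a2, beside 5.7% of genes. 10 members were called in the same direction on both scales in no comparison (11.4%, beside 27.1% of genes): Atp5g2, Atp5l, Atp5s, Cox5b, Cox7a2l, Ndufa12, Ndufa6, Ndufb2, Ndufs3 and Ndufs5. Several of these had low values, such as Atp5l and Ndufs5, while the core subunit Ndufs3 was at 5.88 and 8.45 FPKM in H2O and 3.43 and 3.48 FPKM in FAOi.

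Lists of genes around the respiratory chain gave counts of the same kind. In FAOi, where 51.3% of all genes were lower as deposited and 31.2% lower and 30.9% higher after rescaling, all 14 citric acid cycle genes were lower on both scales (median -1.49, and -0.71 rescaled). Mitochondrial ribosomal proteins were lower in 47 of 49 for the large and 27 of 29 for the small subunit as deposited, and in 43 and 23 after rescaling. Of the assembly factors, 13 of 15 for complex I and 29 of 33 for the other complexes were lower as deposited, and 12 and 17 after rescaling. Coenzyme Q synthesis genes were lower in 12 of 13 and in 5 after rescaling, the carriers in 7 of 9 and in 6, the other donors to ubiquinone in 5 of 7 and in 2, and the supercomplex factors with the ATP synthase inhibitor in 4 of 4 and in 2. Regulators of respiratory chain genes were lower in 18 of 18 and in 16 after rescaling. After rescaling the genes called higher in FAOi were 3 other assembly factors, 2 complex I assembly factors, 2 carriers, 2 ubiquinone donors, 1 coenzyme Q gene and 1 gene of each ribosomal subunit, and 0 in the remaining lists. Among the regulators, the coactivator Ppargc1b was at 3.69 and 4.74 FPKM in H2O and 0.852 and 0.840 FPKM in FAOi (rescaled log2 -1.43, SE 0.09, limma adjusted p = 0.000528). Gabpa changed by -0.89, Nrf1 by -0.71 and Tfam, which packages mitochondrial DNA, by -0.76 after rescaling.

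In MYCi the counts of lower genes after rescaling were 12 of 14 for the citric acid cycle, 41 of 49 and 25 of 29 for the large and small ribosomal subunits, 10 of 15 for complex I assembly, 17 of 33 for other assembly factors, 13 of 18 for regulators, 6 of 8 for carriers, 7 of 13 for coenzyme Q, 3 of 6 for ubiquinone donors and 1 of 4 for supercomplex factors. The counts of higher genes in that order were 0, 2, 1, 0, 3, 0, 1, 1, 1 and 0, beside 28.4% of all genes lower and 25.4% higher. Gabpa changed by -0.73 (limma adjusted p = 0.00114) and Ppargc1b by -0.25, which did not pass. The Ppargc1b difference between both inhibitors was -1.15 after rescaling (SE 0.11, limma adjusted p = 0.0024) and -1.19 as deposited, where it did not pass (limma adjusted p = 0.0663). In siMat2a the rescaled counts of lower genes were 8 of 14, 21 of 49, 8 of 29, 4 of 15, 6 of 33, 4 of 19, 5 of 8, 4 of 13, 1 of 7 and 1 of 4 in the same order of lists, and of higher genes 1, 2, 1, 1, 3, 1, 1, 1, 1 and 0, beside 19.8% of all genes lower and 23.0% higher. Ppargc1b fell there by 0.83, from 4.38 and 4.25 FPKM to 1.75 and 1.12 FPKM. Its paralog Ppargc1a rose by 2.18 from values near 0, at 0.0274 and 0.0421 FPKM in siCtr and 0.530 and 0.251 FPKM in siMat2a.

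In low-potential cells the ribosomal lists had the most lower genes after rescaling, 26 of 49 and 18 of 29, with medians of -0.20 and -0.27, and 4 and 0 as deposited. Citric acid cycle genes were lower in 5 of 14, complex I assembly factors in 7 of 15, other assembly factors in 10 of 32, regulators in 5, carriers in 4, coenzyme Q genes in 4, ubiquinone donors in 2 and supercomplex factors in 0. Higher in these cells were 1 citric acid cycle gene, 2 large ribosomal subunit genes, 2 complex I and 4 other assembly factors, 1 carrier, 1 coenzyme Q gene, 1 ubiquinone donor and 2 supercomplex factors, beside 17.0% of all genes lower and 19.4% higher. In Eed null cells, Ppargc1b was at 2.19 and 2.59 FPKM in het and 5.85 and 6.46 FPKM in null libraries (log2 1.33, SE 0.13, limma adjusted p = 0.00337), and its partner receptor Esrra at 2.26 and 2.45 FPKM and then 4.31 and 5.94 FPKM (log2 1.07, SE 0.18, limma adjusted p = 0.0123). The testis adenine nucleotide carrier Slc25a31 also rose there, by 2.30. Of the other regulators 11 were lower after rescaling, and 16 large and 7 small ribosomal subunit genes, 2 complex I and 10 other assembly factors, 2 carriers, 1 coenzyme Q gene, 1 ubiquinone donor, 1 supercomplex factor and 0 citric acid cycle genes. Those higher numbered 3 regulators, 1 gene of each ribosomal subunit, 0 complex I and 3 other assembly factors, 3 carriers, 2 coenzyme Q genes, 2 ubiquinone donors, 1 supercomplex factor and 3 citric acid cycle genes, beside 22.5% of all genes lower and 25.3% higher. With 50 against 25 µM SAM no gene of these lists passed the test in either direction on either scale.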

How the data were processed

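Total RNA depleted of ribosomal RNA, with ERCC spike-ins, was sequenced in 24 libraries. According to the study's methods, the authors ran Trim Galore and cutadapt for trimming and TopHat2 (2.1.1) for alignment to mm10/GRCm38, removed duplicates with SAMtools (1.9), counted fragments with featureCounts without strand over Ensembl, NONCODE and HOMER (4.10) repeat annotations, splitting multi-mapped and overlapping reads into fractions, and deposited FPKM values made with edgeR. FPKM are not counts, so the count test of the study was not run. Here each table was fitted alone with limma (3.58.1, R 4.3.3) on log2(FPKM + 0.1), for genes with at least 0.1 FPKM in at least 2 libraries, with Benjamini-Hochberg adjustment over all genes tested and a threshold of 0.05. A fold change on this scale understates that of low genes. The rescaled values divide each library by a median-of-ratios size factor. Residual degrees of freedom were 2, and in the deposited siMat2a, FAOi and SAM tables limma gave every gene the fitted trend of the spread. Some adjusted p-values were then very small, down to 1.32e-78 for Cox6a2 in FAOi and 5.84e-18 for Ndufa4l2 in siMat2a. Rescaled ones are therefore printed for FAOi and siMat2a, and in SAM no member passed. The scripts were tested on simulated data.

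Depth and fragment numbers are estimates from the most frequent step of FPKM times exon length in each library. Members, related lists and tests were chosen with earlier results of these data known. The members named were, per comparison, the 5 with the largest change each way on the deposited and the 3 on the rescaled values among those past the threshold, at 1 FPKM or more in either group and with groups that did not overlap, a fixed list of core subunits and isoforms, the highest and lowest member of each complex, and members called on both scales in at least 3 comparisons. Other members are named where a count or an overlap required it and were chosen after their values were seen. Ensembl IDs were matched to GENCODE vM21 for 55144 of 55385 genes. Promoter windows came from RefSeq on GRCm38.p6. Alternatives were another pseudocount or filter, no trend, a replicate block, length or GC centring, all libraries in 1 fit, ERCC scaling (sorted cells) and leaving out each library.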

Additional observations from a re-analysis of the deposited data

Results flagged for a closer look

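The effect of FAOi and that of MYCi on Cox6a2 differed by 2.38 on the log2 scale (limma contrast of both effects), with a larger rise in FAOi. The same contrast for Cox7a1 was -1.63, with a larger drop in FAOi. The 2 effects come from tables with controls of their own, H2O and DMSO, and treatments of different length, which cannot be told apart from the agents. The Cox6a2 difference lost its call with no filter on low values, and so did that of Cox7a1 (limma adjusted p = 0.112 and 0.0912).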

How the results depend on the processing

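Direction and call of the named members held in 597 of 700 member values under alternatives, 51 lost the call, 52 gained it and 0 reversed. These members were picked for passing the threshold on the deposited or the rescaled values, with groups that did not overlap. The alternatives reuse the same libraries, so reversals were unlikely from the start and the counts are no independent check. The rescaled values are the alternative that moved most counts, and their values stand in the report. Scaling after a filter of 1 FPKM and leaving out libraries on the rescaled values were chosen after seeing the data.

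Members called lower, listed by comparison, took these counts. In low against high potential, where 4 were called on the deposited values, the count was 20 rescaled, 2 with a filter of 1 FPKM, 1 with no filter, 2 without the trend, 14 with the replicate block rescaled, 22 with the 1 FPKM filter rescaled, 26 with length centring, 29 with GC centring (19.7% and 22.2% of all genes) and 1 with all 24 libraries in 1 fit. In siMat2a (45) it was 27 rescaled, 2 with no filter, 7 with the replicate block (22.2% of all genes), 22 with the block rescaled, 14 with the 1 FPKM filter rescaled and 73 with all 24 libraries (63.4% of all genes). In MYCi (80) it was 49 with the 1 FPKM filter rescaled. In Eed (2) it was 6 rescaled, 1 with no filter, 4 with the block rescaled, 30 with length and 31 with GC centring, where 31.8% and 37.1% of all genes were lower. In SAM (0) it was 71 with the replicate block, where 51.4% of all genes were lower, and 0 with the block rescaled. In the FAOi effect minus the MYCi effect (1) it was 17 rescaled, 3 with a 1 FPKM filter, 0 with no filter, 6 with the block rescaled, 22 with the 1 FPKM filter rescaled, 12 with length and 10 with GC centring.

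Members called higher took these. Low against high (1) had 4 rescaled, 3 with the block rescaled, 5 with the 1 FPKM filter rescaled and 2 with length or GC centring. SiMat2a (2) had 8 rescaled, 0 with a 1 FPKM filter or no filter, 7 with the block rescaled, 10 with the 1 FPKM filter rescaled and 1 with length centring. FAOi (1) had 3 rescaled, 2 with the 1 FPKM filter rescaled, 3 with length centring and 0 with all 24 libraries. MYCi (1) had 3 rescaled, 3 with the block rescaled, 6 with the 1 FPKM filter rescaled, 3 with length centring and 0 with all 24 libraries. Eed (5) had 10 rescaled, 3 with no filter, 11 with the block, 14 with the block rescaled, 17 with the 1 FPKM filter rescaled and 3 with length centring. SAM (0) had 1 with the block. The effect difference (1) had 0 with no filter, 2 with the block, 2 with the 1 FPKM filter rescaled and 0 with all 24 libraries.

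The median member change went from -0.93 to -0.19 rescaled, -0.19 with the block rescaled, -0.020 with the 1 FPKM filter rescaled and -0.42 with GC centring in siMat2a. In FAOi it went from -1.52 to -0.75 rescaled and with the block rescaled, -0.55 with the 1 FPKM filter rescaled, -1.07 with length and -1.0 with GC centring. In MYCi it went from -1.19 to -0.42 rescaled and with the block rescaled, -0.27 with the 1 FPKM filter rescaled, -0.72 with length and -0.60 with GC centring. In Eed it went from 0.19 to -0.17 with length and with GC centring, where that of all genes was -0.17 and -0.21. In SAM it went from -0.52 to -0.082 rescaled and with the block rescaled, and to -0.052 with the 1 FPKM filter rescaled. The cause of these moves was not tested.

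With 1 library left out, lower counts ranged from 3 to 5 (0 to 24 rescaled) in low against high, 1 to 78 (5 to 34, and 25 without siMat2a replicate 2) in siMat2a, 13 to 82 (59 to 73) in FAOi, 71 to 78 (48 to 52) in MYCi, 1 to 3 (1 to 12) in Eed, 0 (0) in SAM and 0 to 5 (6 to 21, and 16 without FAOi replicate 1) in the effect difference. Higher counts ranged from 1 to 2 (1 to 2), 1 to 1 (1 to 6), 1 to 2 (1 to 2), 1 to 1 (1 to 1), 1 to 20 (4 to 30), 0 (0) and 1 to 1 (0 to 2). Medians ranged from -0.21 to 0.03 (-0.18 to -0.09), -1.20 to -0.64 (-0.19 to -0.17), -1.80 to -1.28 (-0.85 to -0.68, with -0.78 and -0.69 between), -1.34 to -1.05 (-0.48 to -0.39, with -0.47 and -0.44 between), -0.033 to 0.38 (-0.02 to 0.15), -0.83 to -0.22 (-0.14 to -0.047, with -0.048 between) and -0.52 to -0.038 (-0.31 to -0.18). The lone library of an arm is then assumed to vary like the other group.

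Replicate numbers are shared between groups in the labels only as numbers. The correlation of deviations of same-numbered libraries was -0.02 in the sorted cells, -0.02 in siMat2a, -0.10 in FAOi, 0.01 in MYCi, 0.07 in Eed and 0.30 in SAM, so the block values above are given here only. Genes at the level of a few fragments, such as Cox6a2 in controls, are limited by depth.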

Other observations

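Some members had levels that differed between tables, which were normalized separately, so these values are a description without a test. Atp5e was at 9.14 to 11.1 FPKM in the sorted cells and at 6.60 and 7.30 FPKM in Eed het libraries, and at 0.661 to 2.23 FPKM in the siRNA, inhibitor and SAM tables. Cox7a2 was at 45.8 to 59.9 FPKM in the sorted and Eed tables and 4.44 to 22.4 FPKM in the others. Cycs was at 3.01 to 4.08 FPKM in sorted cells and at 7.02 FPKM or more elsewhere. Cox4i1 was at 99.5 to 123 FPKM in sorted cells and 10.3 to 40.5 FPKM elsewhere. Low-potential cells with SAM had Cycs at 9.77 to 21.5 FPKM, beside 3.04 and 3.40 FPKM in the low-potential libraries of the sorted table.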
